A study of Homo sapiens with 4 samples.

Results

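The 10 genes that encode the cohesin ring, its accessory subunits and its best known regulators were followed upon CEBPG knockdown in MV4-11 cells. They were taken by gene symbol from the table of transcript levels, namely SMC1A, SMC3, RAD21, STAG1, STAG2, NIPBL, WAPL, PDS5A, PDS5B and CTCF, and they are 10 of the 16490 genes with a value. Their 16 RefSeq transcripts are among 28581 with a value, and FPKM (fragments scaled to exon length and to the mapped reads of a library) were added up per gene over its transcripts. The group was chosen by the FPKM difference of SMC1A, one of the strongly lower genes between these same libraries, and completed with the genes that act with it. The levels and differences of the members are therefore given as a description with no p, and where members past a threshold are counted, the count is no test of them.

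MV4-11 is an established human acute myeloid leukemia (AML) cell line. The arms sequenced were both made by infection with the pLKO.1-puro lentiviral vector, namely cells with a control hairpin (sh-NC, 2 libraries) and cells with 1 hairpin against CEBPG (sh-CEBPG#3, 2 libraries), a transcription factor of the C/EBP family. No untransduced cells and no other CEBPG hairpin were analysed here, and the sources used here do not state whether the libraries of an arm came from separate infections, so the spread between them may be technical. With 2 libraries against 2, the smallest p that exact permutation allows (two-sided) is 0.333, and each adjusted p below comes from limma's model fitted across all genes tested.

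Cohesin is a ring of SMC1A, SMC3 and RAD21 that entraps DNA. It holds sister chromatids together from replication to anaphase and extrudes chromatin loops in interphase. A STAG protein (STAG1 or STAG2) binds the RAD21 subunit, NIPBL with MAU2 loads the ring, WAPL with a PDS5 protein releases it, and CTCF stops the moving ring at its binding sites. Cohesin genes, STAG2 in particular, are recurrently mutated in myeloid malignancies.

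The sequences 250 bases upstream of the annotated starts of SMC1A, SMC3 and WAPL are shown because SMC1A had the largest difference of the members, SMC3 is its partner in the ring and WAPL had the smallest difference. They are RefSeq sequences of GRCh38.p14, each 5′ to 3′ on the strand of its gene. SMC1A occupies chrX:53374149-53422728 on the minus strand, and the sequence shown for it is chrX:53422729-53422978. That of SMC3 is chr10:110567445-110567694 on the plus strand, and that of WAPL is chr10:86521793-86522042 on the minus strand. Capitals mark a match to 1 of the motifs searched on both strands, which were CCAAT (NFY), TTGCNNAA (C/EBP), TGATGNAA (C/EBP-ATF), TTTCGCGC or TTTGGCGC (E2F), TGACGTCA (CRE) and CCACNAGG (CTCF core).
SMC1A: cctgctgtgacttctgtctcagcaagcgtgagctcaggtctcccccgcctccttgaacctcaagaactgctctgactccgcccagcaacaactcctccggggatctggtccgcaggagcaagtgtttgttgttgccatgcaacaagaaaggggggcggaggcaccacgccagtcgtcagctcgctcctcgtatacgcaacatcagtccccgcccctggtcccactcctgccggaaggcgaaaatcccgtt
SMC3: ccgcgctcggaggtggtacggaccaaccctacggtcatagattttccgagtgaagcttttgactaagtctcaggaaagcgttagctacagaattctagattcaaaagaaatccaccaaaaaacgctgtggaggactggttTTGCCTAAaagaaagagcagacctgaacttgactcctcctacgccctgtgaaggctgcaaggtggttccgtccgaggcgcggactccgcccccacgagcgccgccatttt
WAPL: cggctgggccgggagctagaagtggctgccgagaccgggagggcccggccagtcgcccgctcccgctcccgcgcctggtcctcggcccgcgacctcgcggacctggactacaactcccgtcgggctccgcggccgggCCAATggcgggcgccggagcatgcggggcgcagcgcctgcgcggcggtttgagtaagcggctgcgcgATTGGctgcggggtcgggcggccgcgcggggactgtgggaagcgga
The SMC1A sequence held no match to these letters, and neither did the window of its other annotated start at position 53422654. The SMC3 sequence held TTGCCTAA at position -110 from the start. The WAPL sequence held CCAAT at -113 and its reverse complement ATTGG at -46. Promoter windows reaching from 250 bases before to 50 bases after a start were at hand for 9 members, with 12 windows among them. RAD21 had no window at hand. A member was counted when any of its windows held a match, whereas the shares of all promoters are per promoter. CCAAT in either orientation lay in windows of 5 members (PDS5A, PDS5B, STAG1, STAG2 and WAPL), where 34.62% of 34796 promoters held it. The C/EBP letters lay in 1 member, SMC3, against 10.46% of all promoters. TTTGGCGC lay in NIPBL at -49 and in STAG2 at -51, where 1.14% of all promoters held an E2F match. No member window held TGATGNAA, TGACGTCA or CCACNAGG, which occurred in 3.63%, 1.84% and 4.91% of all promoters. No matches to different motifs overlapped in a member. A match of letters is a description, and binding was not measured here.

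The targeted gene was checked first. CEBPG stood at 30.4 and 33.6 FPKM in sh-NC and at 19.2 and 17.1 FPKM upon knockdown, so that 56.8% of the control level remained (log2 fold change -0.78, SE 0.09, adjusted p = 8.88e-05). The 4 libraries had FPKM totals of 364353.5 to 389766.2, and their depth is unknown because FPKM carries no counts. Myeloid markers fixed for the line were present, with CD33 at 26.8 to 37.2 FPKM and FLT3 at 62.8 to 75.0 FPKM. The summed level of the 10 myeloid markers was 833.62 and 902.3 FPKM in sh-NC and 3445.63 and 3274.66 FPKM in sh-CEBPG#3, of which LYZ alone (lysozyme) made 567 to 610 FPKM and 2982 to 3126 FPKM. Of 9 such markers tested 2 were lower and 4 higher at an adjusted p under 0.05, where the fit called 23.8% of all genes tested lower and 18.5% higher, and KIT was at most 0.19 FPKM. Of 10 genes listed as markers of other cell types 4 had values. COL1A1 was at most 0.08 FPKM and CD79A between 0.71 and 1.33 FPKM. PECAM1, listed as an endothelial marker, was between 18.6 and 43.4 FPKM, and no other cell type is read from it. Whether the rise of LYZ and PECAM1 (adjusted p = 1.403e-08 and 1.654e-05) has a part in the values of the cohesin genes was not tested.

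SMC1A, the coiled-coil ATPase that pairs with SMC3 to form the arms of the ring, had the largest difference of the 10 members. Its level was 14.6 and 15.3 FPKM in sh-NC and 4.86 and 4.56 FPKM in sh-CEBPG#3. The mean went from 14.9 ± 0.523 FPKM (SD, n = 2) in the controls to 4.71 ± 0.210 FPKM (SD, n = 2) upon knockdown, a 3.17-fold lower level with 31.5% of the control remaining. On the log2(FPKM + 1) scale the difference was -1.48 (SE 0.09). Both knockdown libraries lay below both controls, and 27 of the 12142 genes tested had a lower log2 fold change. SMC1A was chosen by this difference, so nothing is read from its rank or its separation. In bulk RNA, fewer cells of a type and less RNA per cell cannot be told apart.

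SMC3, the other ATPase of the ring, was lower by a smaller margin. It stood at 32.7 and 34.4 FPKM in sh-NC and at 25.8 and 24.3 FPKM in sh-CEBPG#3, which left 74.7% of the control level (log2 fold change -0.41, SE 0.08). RAD21, the kleisin that closes the ring and is cut by separase at anaphase, was the most abundant member in every library. It stood at 69.6 and 76.7 FPKM in sh-NC and at 52.0 and 50.1 FPKM in sh-CEBPG#3, which left 69.8% (log2 fold change -0.51, SE 0.08). The groups did not overlap for either gene. The summed level of the 3 ring genes was 116.83 and 126.42 FPKM in the control libraries and 82.74 and 78.95 FPKM in the knockdown libraries.

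**Figure D1:**
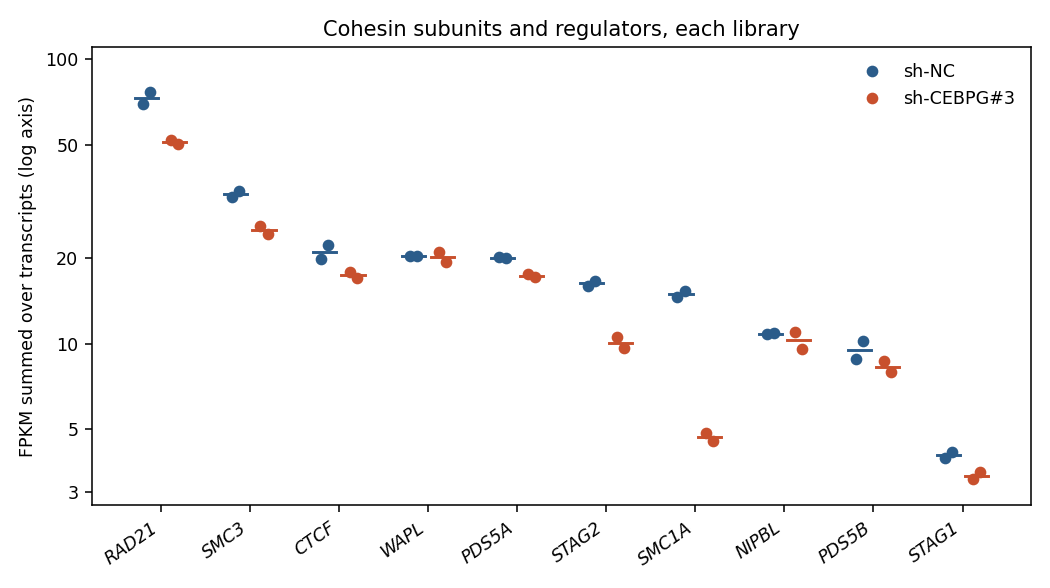
Level of each cohesin gene in each library, as FPKM summed over its transcripts on a log axis, ordered by the sh-NC mean. Points are libraries and bars are group means (n = 2). The sh-CEBPG#3 points of SMC1A, at 4.86 and 4.56 FPKM, lie below both sh-NC points by a wider ratio than those of any other member, while those of WAPL and NIPBL span the sh-NC points.

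The STAG subunits differed from each other. STAG2, the more abundant of the pair in these cells, stood at 15.9 and 16.7 FPKM in sh-NC and at 10.5 and 9.62 FPKM in sh-CEBPG#3. Its mean was 16.3 ± 0.544 FPKM (SD, n = 2) against 10.1 ± 0.656 FPKM (SD, n = 2), which left 62.0%, and its log2 fold change of -0.64 (SE 0.09) was the second lowest of the members. STAG1 stood at 3.95 and 4.15 FPKM in sh-NC and at 3.33 and 3.53 FPKM in sh-CEBPG#3, which left 84.7% (log2 fold change -0.19, SE 0.10). Neither gene had overlapping groups, and the summed STAG level was 19.83 and 20.8 FPKM in sh-NC and 13.87 and 13.15 FPKM in sh-CEBPG#3.

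The genes that load and release the ring were closer to their control levels. NIPBL, the loader, stood at 10.8 and 10.9 FPKM in sh-NC and at 11.0 and 9.56 FPKM in sh-CEBPG#3. WAPL, the release factor, stood at 20.3 and 20.4 FPKM in sh-NC and at 20.9 and 19.4 FPKM in sh-CEBPG#3. The groups overlapped for both, with log2 fold changes of -0.07 for NIPBL (95% interval -0.28 to 0.13) and -0.01 for WAPL (95% interval -0.19 to 0.16). Without sh-CEBPG#3 replicate 2 both differences lay above 0, at 0.02 for NIPBL and 0.04 for WAPL.

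The PDS5 proteins bind the ring beside WAPL and are also needed to keep it closed. PDS5A stood at 20.2 and 19.95 FPKM in sh-NC and at 17.6 and 17.1 FPKM in sh-CEBPG#3, which left 86.4% (log2 fold change -0.20, SE 0.08). PDS5B stood at 8.82 and 10.2 FPKM in sh-NC and at 8.68 and 7.93 FPKM in sh-CEBPG#3, which left 87.4% (log2 fold change -0.17, SE 0.10). The lower control and the higher knockdown library of PDS5B were close to each other, and the difference between the means was smaller than the gap between the controls. Its log2 fold change was -0.27 without sh-NC replicate 1 and -0.08 without sh-NC replicate 2.

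CTCF, the zinc-finger protein that anchors loops, stood at 19.9 and 22.1 FPKM in sh-NC and at 17.9 and 17.0 FPKM in sh-CEBPG#3, which left 83.1% (log2 fold change -0.25, SE 0.08). Its groups did not overlap.

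In counts, 5 of the 10 members (SMC1A, SMC3, RAD21, STAG2 and CTCF) were lower at an adjusted p under 0.05 and 0 were higher by limma (0 also at an unadjusted p under 0.05), where the same fit called 23.8% of all genes tested lower and 18.5% higher. The fold threshold of the study (unadjusted p under 0.05 and a change of more than 2-fold) was applied to limma's log2(FPKM + 1) values. It was passed by SMC1A alone among the members, where 1.05% of all genes passed it downward and 2.36% upward. For 8 of the 10 members both knockdown libraries lay below both controls, as they did for 40.2% of all genes. The members were chosen with this contrast known, so nothing is read from these counts. The median log2 fold change was -0.23 over the members and -0.20 over the other 9 without SMC1A, beside -0.04 over all genes tested. CTCF dropped out of the count when sh-NC replicate 2, sh-CEBPG#3 replicate 1 or sh-CEBPG#3 replicate 2 was left out.

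Since FPKM is scaled to transcript length, levels can be set against each other. In sh-NC the order from high to low was RAD21, SMC3, CTCF, WAPL, PDS5A, STAG2, SMC1A, NIPBL, PDS5B and STAG1. CTCF and WAPL overlapped there, and the libraries of all other neighbours were apart. In sh-CEBPG#3 the order was RAD21, SMC3, WAPL, CTCF, PDS5A, NIPBL, STAG2, PDS5B, SMC1A and STAG1, with overlaps between CTCF and PDS5A and between NIPBL and STAG2. SMC1A thus moved from rank 7 to rank 9 of 10, and PDS5B and NIPBL passed above it.

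Ratios taken within a library do not depend on a scaling factor of that library. The SMC1A to SMC3 ratio was 0.446 and 0.445 in sh-NC and 0.188 in each sh-CEBPG#3 library. The SMC1A to RAD21 ratio was 0.2093 and 0.1996 in sh-NC and 0.0933 and 0.0910 in sh-CEBPG#3. RAD21 to SMC3 kept closer values, at 2.13 and 2.23 in sh-NC and 2.01 and 2.07 in sh-CEBPG#3, with no overlap. The ring genes were thus unequally lower, with SMC1A, the gene chosen by its difference, apart from SMC3 and RAD21.

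STAG2 exceeded STAG1 by a ratio of 4.03 and 4.01 in sh-NC and of 3.17 and 2.72 in sh-CEBPG#3, with no overlap. PDS5A to PDS5B was 2.29 and 1.96 in sh-NC and 2.03 and 2.16 in sh-CEBPG#3, and these values overlapped. WAPL to NIPBL was 1.88 and 1.87 in sh-NC and 1.90 and 2.03 in sh-CEBPG#3. NIPBL to MAU2, the partner of NIPBL in the loader, was 0.521 and 0.497 in sh-NC and 0.470 and 0.422 in sh-CEBPG#3. The release and loading ratios did not overlap between the groups, and they shifted far less than those that involve SMC1A. Since SMC1A was chosen for its difference in these libraries, nothing is read from this contrast.

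The transcripts were also read one by one. Of the members 6 were listed with 1 transcript, and SMC1A, STAG2, NIPBL and PDS5A with more. Nearly all of the SMC1A level belonged to NM_006306, at 14.5 and 14.7 FPKM in sh-NC and 4.71 and 4.34 FPKM in sh-CEBPG#3. The other transcript, NM_001281463, was listed at 0.028 and 0.656 FPKM in sh-NC and at 0.141 and 0.222 FPKM in sh-CEBPG#3. The mean share of NM_006306 was 97.8% in sh-NC and 96.1% in sh-CEBPG#3, and the shares overlapped between the groups.

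STAG2 was divided among 4 transcripts. NM_001042751 led with 8.89 and 11.8 FPKM in sh-NC and 5.46 and 4.95 FPKM in sh-CEBPG#3, a mean share of 63.5% against 51.6%. Its share differed by -11.86 percentage points, but by -4.39 points without sh-NC replicate 2 and by -19.3 points without sh-NC replicate 1, so that 1 control library set its size. NM_001042750 went from 2.81 and 2.46 FPKM to 1.41 and 1.74 FPKM, also without overlap. NM_001042749 stood at 2.35 and 2.39 FPKM against 1.59 and 2.10 FPKM, again without overlap. NM_006603 was listed at 1.83 FPKM in sh-NC replicate 1 and at 0 in sh-NC replicate 2, against 2.09 and 0.830 FPKM, so that its 2 controls differed more than the groups did.

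NIPBL was split nearly evenly, with NM_015384 at 5.30 and 5.03 FPKM in sh-NC and 4.45 and 4.88 FPKM in sh-CEBPG#3, and NM_133433 at 5.50 and 5.86 FPKM against 6.57 and 4.67 FPKM. PDS5A was mostly NM_001100399, at 19.0 and 19.4 FPKM in sh-NC and 17.0 and 16.4 FPKM in sh-CEBPG#3. Its NM_001100400 stood at 1.20 and 0.586 FPKM against 0.601 and 0.662 FPKM. The division of a gene's reads among transcripts that share most of their exons is an estimate, and its error is not given by the files.

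The partners of cohesin were taken from a list of 18 genes, of which 16 were listed and 14 tested. Of these 9 were lower and 1 higher at an adjusted p under 0.05, against 23.8% and 18.5% of all genes tested. Their median log2 fold change was -0.43 beside -0.04 over all genes. ESCO2, which acetylates SMC3 during replication, fell from 9.34 and 9.14 FPKM to 6.23 and 5.77 FPKM (log2 fold change -0.55, adjusted p = 0.0008381). DSCC1 and CHTF18, subunits of the alternative clamp loader that acts in cohesion at the fork, fell by 0.92 and 0.90 on the log2 scale (adjusted p = 0.0001532 and 2.261e-05). CDCA5, known as sororin, which holds off WAPL, fell from 23.7 and 25.6 FPKM to 16.4 and 15.0 FPKM (log2 fold change -0.62, adjusted p = 0.0002853).

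Among the protectors of centromeric cohesion, SGO1 fell by 0.47 and SGO2 by 0.39 on the log2 scale (adjusted p = 0.005065 and 0.0095). HASPIN, the histone kinase that binds PDS5 proteins, fell from 7.31 and 7.57 FPKM to 2.84 and 2.56 FPKM (log2 fold change -1.19, adjusted p = 1.104e-05). It lies within ITGAE, itself at 2.32 and 2.91 FPKM against 1.93 and 1.86 FPKM, and whether the counting used strand is not given in the sources used here. ESPL1, the separase that cuts RAD21, fell from 6.65 and 7.24 FPKM to 3.82 and 3.71 FPKM (log2 fold change -0.74, adjusted p = 0.0002134). Its inhibitor PTTG1, known as securin, fell by 0.27 on the log2 scale (adjusted p = 0.01444). Without sh-CEBPG#3 replicate 1 the adjusted p of PTTG1 was 0.1221.

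REC8, the meiotic counterpart of RAD21, was the 1 partner called higher. It rose from 1.20 and 1.06 FPKM to 4.92 and 4.05 FPKM (log2 fold change 1.36, adjusted p = 1.84e-05), while its annotated span overlaps that of IPO4, which stood at 23.6 and 25.6 FPKM against 17.8 and 18.1 FPKM. The other meiotic subunits were under the level needed for a test, with STAG3 at 0.171 and 0.0781 FPKM in sh-NC and 0.452 and 0.499 FPKM in sh-CEBPG#3. SMC1B, the meiotic counterpart of SMC1A, was at 0.0515 FPKM or less in each library and listed at 0 in sh-CEBPG#3 replicate 1. REC8 thus remained well below RAD21 in each library, and SMC1B near 0. RAD21L1 and CTCFL were not analysed here.

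The remaining partners tested did not pass, and each had a positive log2 fold change. MAU2 differed by 0.11 on the log2 scale (95% interval -0.06 to 0.28, adjusted p = 0.2894). ESCO1, the other SMC3 acetyltransferase, differed by 0.19 (95% interval -0.07 to 0.45, adjusted p = 0.2179), and without sh-CEBPG#3 replicate 2 its adjusted p was 0.04551, which brought the partners called higher to 2. HDAC8, which removes the acetyl mark from SMC3, differed by 0.17 (95% interval -0.02 to 0.36, adjusted p = 0.137), and CHTF8 by 0.06 (95% interval -0.11 to 0.24, adjusted p = 0.5371).

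The other SMC complexes were set beside cohesin. Condensin, which compacts mitotic chromosomes, had 7 of its 8 genes lower and 0 higher at an adjusted p under 0.05 by limma (0 higher also without adjustment), against 23.8% and 18.5% of all genes tested. Their median log2 fold change was -0.53. SMC2 fell from 17.3 and 17.1 FPKM to 10.3 and 9.28 FPKM (log2 fold change -0.76, adjusted p = 8.736e-05), and SMC4 from 66.95 and 69.0 FPKM to 50.4 and 44.3 FPKM (log2 fold change -0.51, adjusted p = 0.0007082). NCAPD3, NCAPH and NCAPG fell by 0.81, 0.58 and 0.54 on the log2 scale (adjusted p = 5.128e-05, 0.0007526 and 0.0008254). NCAPG2, at -0.24, did not pass (adjusted p = 0.0553). None of the condensin genes reached the log2 fold change of SMC1A, which was chosen for its difference in these libraries. The log2 fold changes of SMC2 and SMC4 lay closer to each other than those of SMC1A and SMC3. That choice bears on both comparisons, which were not tested and from which nothing is read.

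The SMC5/6 list held the complex, which acts in DNA repair, the factors that load it, and SMCHD1, which is not a subunit. The list had 4 of 9 genes tested lower and 1 higher at an adjusted p under 0.05, with a median of -0.23. Over all genes 23.8% were lower and 18.5% higher. NSMCE1, SMCHD1 and NSMCE4A fell by 0.48, 0.35 and 0.30 on the log2 scale (adjusted p = 0.0007311, 0.009854 and 0.01723), and NSMCE2 rose by 0.36 (adjusted p = 0.006175). The core ATPases gave no call, with SMC5 at -0.22 (95% interval -0.50 to 0.06, adjusted p = 0.193) and SMC6 at -0.09 (95% interval -0.31 to 0.13, adjusted p = 0.505). Without sh-CEBPG#3 replicate 2 the number lower was 1, with adjusted p of 0.0587 for SMCHD1 and 0.159 for NSMCE4A, and the log2 fold change of SMC6 turned to 0.0152. Without sh-CEBPG#3 replicate 1 SMC5 passed at 0.0273.

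Several cohesin regulators are made mainly in cycling cells, so proliferation genes were measured as well. Of 16 tested 15 were lower and 0 higher at an adjusted p under 0.05 by limma (1 higher without adjustment, RRM2), against 23.8% and 18.5% of all genes tested. Their median log2 fold change was -0.73. Their summed level was 812.94 and 888.92 FPKM in sh-NC and 525.03 and 497.55 FPKM in sh-CEBPG#3. MKI67 fell from 18.7 and 19.7 FPKM to 9.692 and 8.999 FPKM (log2 fold change -0.96, adjusted p = 1.613e-05), and MCM6, MCM3 and MCM2, subunits of the replicative helicase, fell by 1.15, 1.00 and 0.98 (adjusted p = 5.624e-06, 6.249e-06 and 1.959e-05). RRM2, a subunit of ribonucleotide reductase, differed by 0.18 (adjusted p = 0.0914). The part of these proliferation genes in the values of SMC1A and the other cohesin genes was not tested.

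**Figure D2:**
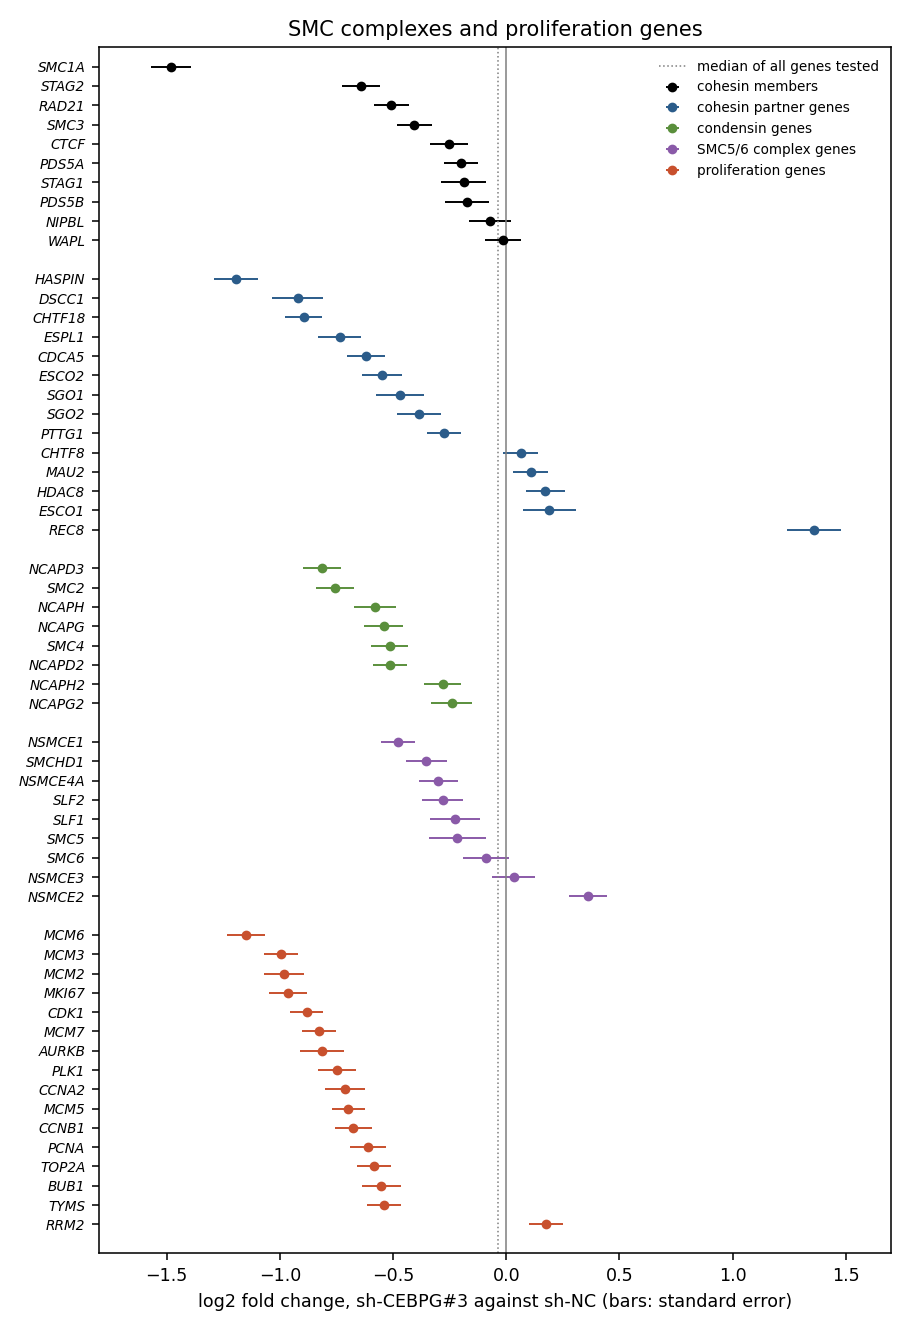
Log2 fold change of sh-CEBPG#3 against sh-NC on the log2(FPKM + 1) scale for each gene of the cohesin, partner, condensin, SMC5/6 and proliferation lists. Points are limma estimates, bars are 1 standard error and the dotted line is the median of all genes tested, at -0.04. SMC1A lies at -1.48, HASPIN at -1.19 and REC8 at 1.36, and the proliferation genes other than RRM2 lie below 0.

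The 3 genes outside the members whose pattern over the 4 libraries was closest to that of SMC1A were PIM1, CALR and UBASH3B. Likeness was the Euclidean distance between log2(FPKM + 1) values centred on their mean, among 6062 genes at or above the median level of 7.51 FPKM. PIM1, a serine/threonine kinase, had a distance of 0.0376 and stood at 58.5 and 60.9 FPKM in sh-NC and at 21.5 and 19.6 FPKM in sh-CEBPG#3. CALR, a chaperone of the endoplasmic reticulum, had a distance of 0.0601 and a log2 fold change of -1.499. UBASH3B, a tyrosine phosphatase, had a distance of 0.0632 and stood at 14.5 and 15.9 FPKM against 5.21 and 4.67 FPKM, close to SMC1A in level as well.

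Of the genes beside SMC1A on the X chromosome, HSD17B10 and IQSEC2 were higher upon CEBPG knockdown. They were taken by position, among the 3 genes with a value within 100000 bases of SMC1A on GRCh38.p14. HSD17B10, a mitochondrial dehydrogenase gene at chrX:53431258-53434376, rose from 35.7 and 38.3 FPKM to 67.0 and 64.3 FPKM (log2 fold change 0.81, adjusted p = 2.294e-05). IQSEC2, at chrX:53225813-53321350, rose from 0.802 and 0.878 FPKM to 1.72 and 1.40 FPKM (log2 fold change 0.47, adjusted p = 0.01473). RIBC1, which begins at 53422873 next to the start of SMC1A, was at 0.204 FPKM or less in each library, with means of 0.148 FPKM in sh-NC and 0.138 FPKM in sh-CEBPG#3, and was not tested. No other annotated gene with a value overlapped the span of SMC1A.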

How the data were processed

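RNA was extracted with Trizol and 1 µg of total RNA was prepared with the Illumina TruSeq RNA kit. Per the labels' processing notes reads were mapped with HISAT2 2.0.5 to hg38, and the authors deposited FPKM values per RefSeq transcript and library. The program behind the FPKM and the annotation release are not given in the sources used here. Values were summed by gene symbol. After a filter at a mean of 0.5 FPKM, log2(FPKM + 1) values of 12142 genes entered limma 3.58.1 under R 4.3.3 (lmFit, eBayes with a trend, two-sided), without a block, with Benjamini-Hochberg adjustment over all of them. The pseudocount understates changes of low genes. The study's methods name DESeq2, which takes counts, so it was not run. Among 1027 low transcripts at most 0.49% shared 1 ratio between libraries, so whole-read steps were not seen. The script was checked on simulated data.

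The members and lists were chosen with earlier results of these data known. Genes named were the members, CEBPG, the partner genes, from each other list up to 4 with the largest absolute change among those called plus SMC2, SMC4, SMC5, SMC6 and MKI67, and the 3 nearest to SMC1A. NCAPG2, RRM2, LYZ, other cell type markers, overlapping genes and the neighbours of SMC1A are named outside this rule, and some marker results are not reported here. Promoters and loci are RefSeq's for GRCh38.p14. Alternatives were pseudocounts, filters, scalings, a replicate block, single transcripts and each library left out. Figures were drawn with matplotlib 3.10.9.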

Additional observations from a re-analysis of the deposited data

How the results depend on the processing

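SMC1A had the lowest log2 fold change of the members under each of the 12 alternatives, between -1.66 and -1.45, and between -1.52 and -1.44 with a library left out. It was chosen for its difference in these same libraries, so nothing is read from its place among the members. With all libraries kept, the members called lower numbered 4 to 6 except per transcript, where they were 2 (all genes 645 of 11992 lower). They were 6 with equal totals and with quantile normalization, where 3503 and 3054 of 12142 genes were lower. They were 4 without a filter and with the replicate block, where 2232 of 16490 and 2673 of 12142 genes were lower. No member was called higher under any alternative. Per transcript 640 of all genes were higher, condensin gave 3 lower, and SMC5/6 1 lower and 0 higher. HDAC8 (-0.0914), CHTF8 (-0.0102) and SMC6 (0.3216) changed sign per transcript. SMC2, SMC4 and NCAPH were not called per transcript (limma adjusted p = 0.2425, 0.1666 and 0.0749). With a filter at 1 FPKM, equal totals or quantile normalization 8 condensin genes were lower, NCAPG2 among them. With pseudocounts of 0.1 and 0.01 the study's fold threshold was passed by 337 and 373 genes downward and by 490 and 509 upward. Without a filter 2 SMC5/6 genes were lower and 2 partners higher, and 2 partners were also higher with quantile normalization. RRM2 made 1 proliferation gene higher with equal totals and with quantile normalization. With quantile normalization the SMC1A to SMC3 ratio changed by -1.22 on the log2 scale in place of -1.25. Leaving out 1 library gave 1 to 5 SMC5/6 genes lower, 1 to 2 partners higher and 4 to 5 members lower, with SMC6 between -0.1946 and 0.0152, the latter without sh-CEBPG#3 replicate 2. The lone library of a group was then assumed to vary like the other group. Same-numbered libraries deviated with a correlation of 0.061, which shows no marked shared deviation but cannot tell whether they were prepared together. With the replicate block 4 members were lower, CTCF was not called, and PTTG1 reached an adjusted p of 0.0565. Among the named genes that are not members, 14 calls were lost and 3 gained over all alternatives. Of the members, CTCF left the count without a filter and per transcript as well, SMC3 and STAG2 left it per transcript, and PDS5A joined it with equal totals and with quantile normalization. The cause was not tested, and the unknown depth limits what can be said of genes near 0.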

Other observations

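A pair of RNAs transcribed beside members was listed. NIPBL-DT, divergent from NIPBL, stood at 3.81 and 3.86 FPKM in sh-NC and at 3.67 and 3.81 FPKM in sh-CEBPG#3, a log2 fold change of -0.03. RAD21-AS1, antisense to RAD21, stood at 0.095 and 0.186 FPKM in sh-NC and at 0.234 and 0.126 FPKM in sh-CEBPG#3 and was not tested. CCDC25 and PBK, whose annotated spans overlap that of ESCO2, stood at 18.6 and 20.4 FPKM and at 7.02 and 7.35 FPKM in sh-NC, against 14.6 and 13.8 FPKM and 5.80 and 6.38 FPKM in sh-CEBPG#3.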
